A study of Drosophila melanogaster with 4 samples.

Results

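H2Av-enriched regions on the heterochromatic and unplaced scaffolds of the Drosophila melanogaster genome are described here, scaffold by scaffold. The members were all enriched regions of the combined list, the one deposited for the replicate set, that lay on 2LHet, 2RHet, 3LHet, 3RHet, XHet, YHet or U, with no limit on width or score. They numbered 357 of the 4698 regions of that list, and the other 4341 lay on the 6 chromosome arms (2L, 2R, 3L, 3R, 4 and X). The same scaffolds held 224 of 4198 regions in the replicate 1 list and 203 of 4070 in the replicate 2 list. The lists came from chromatin immunoprecipitation and sequencing of S2-DRSC cells, a male line derived from late embryos, precipitated with a rabbit polyclonal antibody against H2Av. All 4 libraries (2 immunoprecipitations and 2 inputs) were from cells given double-stranded RNA against GFP, first 50 µg and after passage 200 µg, so no untreated or other knockdown group is compared. The description field of the replicate 2 immunoprecipitation calls it input, whereas its title and source name call it ChIP, and the description of the replicate 1 input names the antibody. Titles and source names were followed for both. Nothing in the labels says whether the 2 replicates came from separate cultures.

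Nucleosomes that carry the H2A variant H2Av in place of the canonical histone are found near the starts of active genes and, in flies, also in heterochromatin. Pericentric heterochromatin is rich in transposable elements and satellite repeats and holds fewer genes than the euchromatic arms, and the Y chromosome is heterochromatic along its whole length. In the release 5 assembly, sequence assigned to the heterochromatin of an arm but not joined to it was put on the Het scaffolds, and sequence with no assigned chromosome was joined into U. A distance on U that crosses a join is therefore not a physical distance. No sequence was used here, so joins or unsequenced stretches on the Het scaffolds were not looked for either. Gaps, windows and shares covered are in scaffold coordinates, over the full stated length of each scaffold. A stretch without regions is therefore not shown to lack H2Av. A short read from a repeat can match many places, and the sources used here do not say how such reads were treated.

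The 7 scaffolds together made up 19.3 Mb, of which U was 10.0 Mb or 52.0%. The lists hold positions and a score for each region and no read counts, so depth is unknown. Scores are the authors' own, deposited with no stated scale, and differ between lists in their median (0.88 combined, 1.11 replicate 1 and 1.28 replicate 2 on these scaffolds). No test over samples was made, since 2 replicate lists give little from which to estimate a spread. Values are given for each list, with the standard deviation over the 2 replicate lists. Intervals on shares of regions are 95% Wilson intervals that cover counting error only and treat regions as independent. Overlap of 2 such intervals does not show that 2 shares are equal.

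H2Av-enriched sequence was spread unequally over the scaffolds, densest on XHet and sparsest on 3RHet, U and YHet. XHet, the shortest at 0.204 Mb, had 25.8% of its length covered in the combined list, while replicate 1 covered 18.4% and replicate 2 16.9%, a replicate mean of 17.6 ± 1.03% (SD, n = 2). 3LHet followed with 14.0%, 10.1% and 8.86% in the same lists. 2RHet had 10.2% covered in the combined list and 7.21 ± 0.909% in the replicates (SD, n = 2), and 2LHet had 8.60% and 6.86 ± 0.161% (SD, n = 2). The sparsest were 3RHet (4.22%, replicates 2.66 ± 0.425%, SD, n = 2), U (3.01%, replicates 1.74 ± 0.0483%, SD, n = 2) and YHet (2.52%, replicates 1.87 ± 0.0134%, SD, n = 2). 2LHet and 2RHet changed places between the replicate lists (6.75% and 7.85% in replicate 1, 6.98% and 6.57% in replicate 2). YHet was above U in both replicate lists and below it in the combined list. All 7 scaffolds together were covered over 6.18% of their length in the combined list and 4.08 ± 0.356% in the replicates (SD, n = 2). The arms were covered over 17.3% and 14.8 ± 0.358% (SD, n = 2), which is further from the scaffold value than the replicate lists were from each other. Without U the Het scaffolds reached 9.62%. Chromosome 4, which is short and largely heterochromatic, had 47.5% covered. The 1.5-Mb windows at the centromere-proximal ends of the assembled arms 2L, 2R, 3L, 3R and X (proximal windows) had 29.2%. Both were above every one of the 7 scaffolds.

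**Figure D1:**
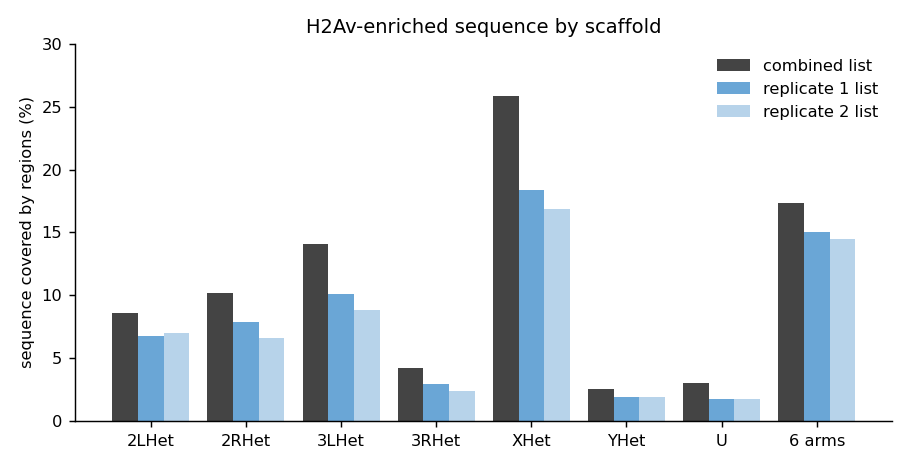
Percent of each scaffold's length covered by H2Av regions in the combined, replicate 1 and replicate 2 lists, beside the 6 arms, with each bar being 1 list. XHet stands highest at 25.8% in the combined list and YHet lowest at 2.52%, and the combined list covers more than either replicate list on every scaffold.

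The regions themselves were narrower than on the arms and more of them were weak. The combined list gave a median width of 2251 bp on the scaffolds against 3671 bp on the arms, and the replicate lists gave 2661 bp and 2768 bp against 3569 bp and 3592 bp. This order did not hold for every class. Among combined-list regions found in both replicate lists, the median was 4595 bp on the Het scaffolds, 2964 bp on U and 4279 bp on the arms. Among those found in neither it was 1297, 1367 and 1315 bp. Among scaffolds with more than 10 regions, the median width in the combined list ran from 1931 bp on 3RHet and 2087 bp on U to 2922 bp on 2RHet. That order turned on the list, since 3RHet had 1929 bp in replicate 1 (20 regions) and 6239 bp in replicate 2 (11 regions), while U had 2485 and 2360 bp and 2RHet 3644 and 3466 bp. The least width in the combined list was 1001 bp, held by 8 of the 357 regions, all of them absent from both replicate lists. The same width was held by 34 arm regions, all likewise absent from both replicate lists. The replicate lists had higher least widths, 1301 and 1304 bp over all their regions and 1311 and 1309 bp on the scaffolds, so neither held regions as narrow as these. The widest region on any of the scaffolds was at 2RHet 3177464 to 3201558, 24.1 kb wide. It was followed by 23.0 kb at 3LHet 689134 to 712112 and 21.6 kb at 2RHet 331526 to 353128. Each of these 3 was a single region in the combined list that the replicate lists held as 2 or 3 shorter ones. The median score was 0.88 against 1.54 on the arms, and 54.6% of the scaffold regions had a score below 1 against 36.2% of arm regions. Low scores were not particular to the scaffolds, since the combined-list median was 0.69 on chromosome 4 and 0.66 in the proximal windows. Median widths there were 3581 and 3307 bp.

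A smaller share of these regions recurred in both replicate lists than on the arms as a whole. Of the 357 regions, 166 (46.5%, interval 41.4 to 51.7%) overlapped a region in both replicate lists by at least 1 bp, against 74.7% of all 4698 regions and 77.1% (75.8 to 78.3%) of those on the arms. Another 57 (16.0%) were found in one replicate list, 40 of them in replicate 1 and 17 in replicate 2. The remaining 134 (37.5%, 32.7 to 42.7%) were in neither, against 15.8% of all regions and 14.0% on the arms. By sequence rather than by count the gap was smaller, since 72.4% of the covered bases lay in regions found in both lists and 16.6% in regions found in neither (arms 91.7% and 4.22%). Recurrence in both lists was 44 of 82 on 2RHet, 48 of 96 on 3LHet, 52 of 124 on U, 9 of 30 on 3RHet, 7 of 13 on XHet, 3 of 8 on 2LHet and 3 of 4 on YHet. The intervals of these scaffolds overlapped each other, the lowest being 30.0% (16.7 to 47.9%) on 3RHet and the highest of the larger scaffolds 53.7% (42.9 to 64.0%) on 2RHet. On 3RHet the regions found in one list were unequally divided, 8 in replicate 1 only and 0 in replicate 2 only, and on 2RHet 12 and 2. On chromosome 4 the share found in both was 63.0% (54.1 to 71.2%) and in the proximal windows 56.8% (52.1 to 61.5%). Both were above the scaffold value and below that of the arms as a whole. The Het scaffolds without U had 48.9% (42.6 to 55.3%), an interval that overlapped both of these, that of chromosome 4 only from 54.1 to 55.3%.

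**Figure D2:**
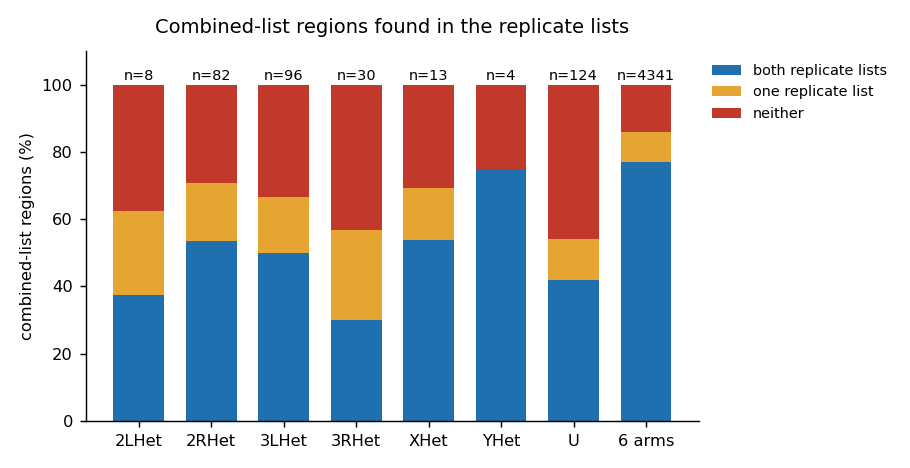
Percent of combined-list regions on each scaffold, and on the 6 arms, that were found in both, one or neither replicate list, with the number of regions above each bar. The share found in both is 46.5% over the 7 scaffolds and 77.1% on the arms.

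The gap between scaffolds and arms was widest among regions with high scores. Below a score of 0.5 the share found in both replicate lists was 16.7% on the scaffolds and 16.9% on the arms. Between 0.5 and 1 it was 47.6% against 61.3%, and between 1 and 2 it was 71.9% (62.2 to 79.9%) against 99.0%. At scores of 2 or more it was 32 of 66 regions (48.5%, 36.8 to 60.3%), with 31 in neither, against 1192 of 1197 (99.6%) on the arms. These high-scoring regions were concentrated on U, which held 41 of the 66, with 15 found in both. On the other 6 scaffolds 17 of 25 were found in both.

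Width set the high-scoring regions apart. Those with scores of 2 or more that recurred in both lists had a median width of 3310 bp, whereas those found in neither had a median of 1303 bp and none was wider than 2791 bp. Narrow regions, under 2 kb, with a score of 1 or more numbered 41 of 357 (11.5%, 8.58 to 15.2%), of which 30 were on U, against 19 of 4341 (0.438%) on the arms. The Het scaffolds without U had 11 of 233 (4.72%, 2.66 to 8.25%). The proximal windows, which are part of the arms, had 9 of 424 (2.12%, 1.12 to 3.98%), an overlapping interval. None of the 41 was found in both replicate lists, 4 were found in one and 37 in neither, and none of the 19 on the arms was found in either. Over all scores, recurrence rose with width on the scaffolds as on the arms. The part of the higher least width of the replicate lists in the narrowest class was not tested. Under 2 kb it was 4.20% (arms 6.97%), from 2 to 4 kb 62.7% (arms 88.1%), from 4 to 8 kb 92.3% (arms 98.6%), and from 8 kb it was 28 of 28 (arms 608 of 608). The scaffolds had 40.1% of their regions in the narrowest class against 19.5% on the arms. Within the class of 2 to 4 kb with a score of 1 or more, 47 of 67 scaffold regions (70.1%, 58.3 to 79.8%) were found in both lists against 1024 of 1025 arm regions. Width and score were not matched inside this class. Over all scores, scaffold regions of 2 to 4 kb had a median width of 2602 bp and a median score of 0.99. Arm regions of that width range had 3115 bp and 1.41.

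**Figure D3:**
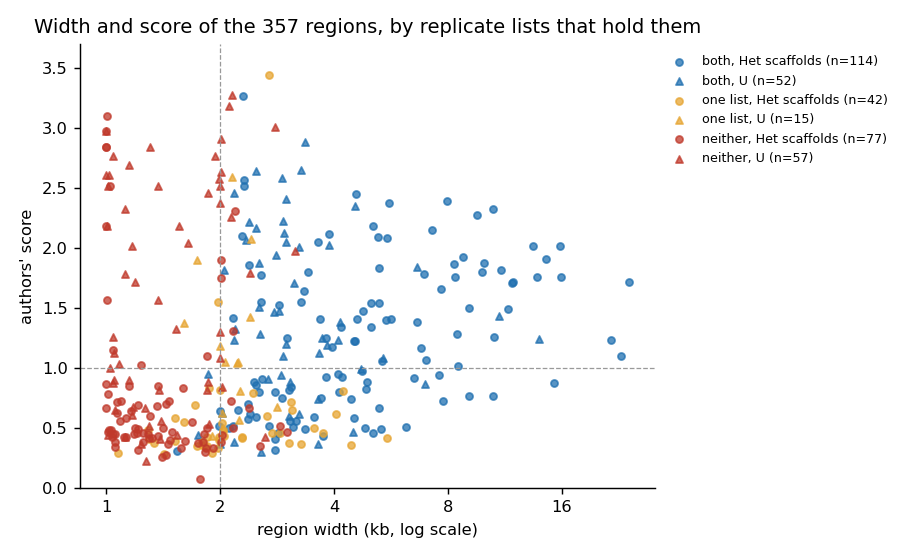
Width (kb, log scale) and authors' score of each of the 357 combined-list regions, coloured by whether both, one or neither replicate list held it, with triangles for U and circles for the Het scaffolds. Above a score of 1 and left of 2 kb lie 41 regions, none of them found in both replicate lists, and right of 8 kb all 28 regions were found in both.

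Some scores were shared by several regions, and a subset stood in simple ratios to the most frequent one. The score held by the most regions of the combined list, 0.52, was shared by 21 of them, 2 on the scaffolds, and 2.52 was shared by 5, all on the scaffolds. When 2 was raised to the difference between a region's score and 0.52, the result was a fraction of whole numbers with a denominator of 20 or less, within 1e-09, for 75 of the 357 scaffold regions (21.0%, 17.1 to 25.5%) and for 139 of the 4341 arm regions (3.20%, 2.72 to 3.77%). The base of 2 was the only one tried, and the scale of the score is not stated. They made up 49 of 124 regions on U and 4 of 4 on YHet. Of the scaffold regions with a score of 2 or more, 30 of the 31 found in neither replicate list were among them, against 6 of the 32 found in both. Of the 41 narrow regions with a score of 1 or more, 37 were. The arms had a like pattern. There, among regions with a score of 2 or more, 5 of 5 found in neither list and 18 of 1192 found in both had such scores. So did 15 of the 19 narrow arm regions with a score of 1 or more. With denominators up to 10 the counts were 55 on the scaffolds and 71 on the arms, and with denominators up to 50 they were 112 and 304.

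Along the scaffolds the regions were clumped, with long empty stretches between. The median gap between neighbours was 10.6 kb over the 7 scaffolds, but it was 32.1 kb on U and 4.87 kb on the others together, beside 4.68 kb on the arms. In the replicate lists U had 80.5 and 69.7 kb, the other 6 scaffolds together 8.63 and 12.6 kb, and the arms 5.50 and 5.90 kb, so the near match of Het scaffolds and arms was seen in the combined list and in neither replicate list. Taking as a group any run of regions with gaps of at most 5 kb, 200 of 357 regions (56.0%, 50.8 to 61.1%) lay in 63 groups, 34 of them pairs. The share was 29.8% on U and 70.0% (63.8 to 75.5%) on the Het scaffolds, against 75.8% (74.5 to 77.0%) on the arms. In replicates 1 and 2 the Het scaffolds had 55.2% and 53.5% and the arms 71.2% and 69.9%, a wider difference than in the combined list. The combined list had 11 groups of 5 or more, holding 73 regions, with 5 groups on 2RHet, 4 on 3LHet and 1 each on 3RHet and XHet. Each replicate list had 5 such groups, 2 on 2RHet, 2 on 3LHet and 1 on XHet. In windows of 100 kb, 82 of 197 (41.6%) held no region in the combined list, against 17.3% on the arms, and the same 82 were empty in both replicate lists. A region occurred in all 3 lists in 84 windows and in the combined list alone in 25, of which 16 were on U. Both replicate lists held 97 of the 200 grouped regions (48.5%, 41.7 to 55.4%) and 69 of the 157 lone ones (43.9%, 36.4 to 51.8%), with overlapping intervals. On U, 21 of 37 grouped regions (56.8%) and 31 of 87 lone ones (35.6%) were found in both, with intervals of 40.9 to 71.3% and 26.4 to 46.1%.

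**Figure D4:**
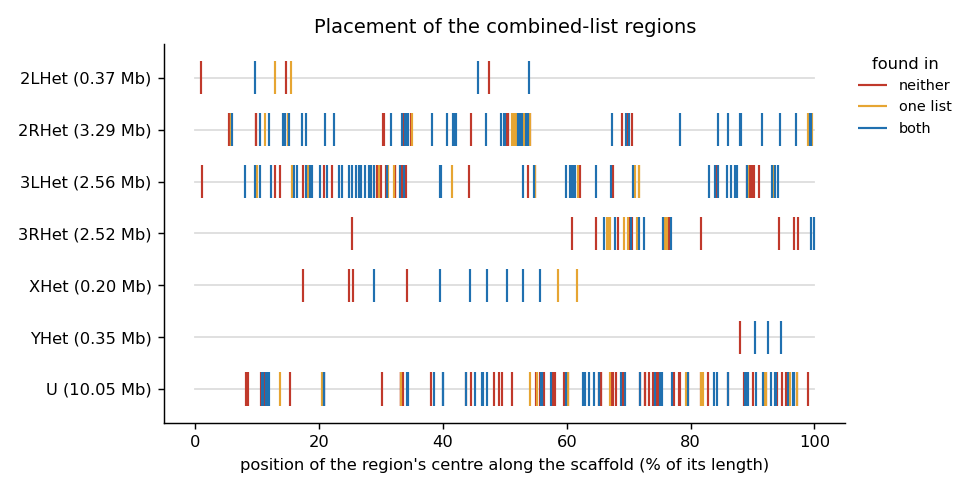
Position of the centre of each combined-list region, as percent of the scaffold's length, on the 7 scaffolds, coloured by whether both, one or neither replicate list held it. On 3RHet 25 of 30 regions lie in the last of 3 equal stretches, all 4 YHet regions lie near the end, and XHet and 2LHet have none in their last stretch.

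2LHet (0.369 Mb) held 8 regions in the combined list and 4 in each replicate list. The 3 found in both had the highest scores and the largest widths. At 30362 to 40900 (10.5 kb) the combined-list score was 2.32, that of replicate 1 2.24 and that of replicate 2 2.41, with start and end within 200 bp in all 3 lists. At 162782 to 174328 (11.5 kb) the scores were 1.49, 1.46 and 1.54, and at 197908 to 200294 (2387 bp) they were 1.86, 1.81 and 1.90. The other 5 were between 1029 and 1977 bp wide. They included the largest group, 3 regions over 11.2 kb at 46700 to 57902, in which replicate 1 held the first (score 0.45), replicate 2 the last (0.63), and neither the one between. The longest gap was 105 kb, from 57903 to 162781, and the last 169 kb of the scaffold held no region in any list.

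2RHet (3.29 Mb) held 82, 63 and 55 regions in the combined, replicate 1 and replicate 2 lists. In the combined list 23, 39 and 20 regions lay in the first, middle and last of 3 equal stretches, and 8 of 33 windows of 100 kb were empty. The longest gap was 434 kb, from 1778741 to 2213121, and no list had a whole region inside it. The largest group had 5 regions in replicate 1 and 6 in replicate 2. In the combined list it had 10 regions over 53.7 kb at 1704740 to 1758394, of which 78.2% was covered. The scores in this group were low, with a median of 0.43 and a highest of 1.50, and 5 of the 10 were found in both replicate lists, 3 in one and 2 in neither. A group of 8 lay nearby at 1619714 to 1663924 (44.2 kb), with 3 in both lists and 5 in neither. The 2 widest regions both recurred. The region at 3177464 to 3201558 had a score of 1.71 and was covered over 94.8% by 2 regions of replicate 1 and over 89.4% by 3 of replicate 2. The region at 331526 to 353128 had a score of 1.23 and was covered over 96.9% by 3 regions and 93.1% by 2. The 2 with the highest scores did not recur in both. The one at 1151452 to 1154150 (2699 bp) had the highest score of all 4698 regions, 3.45, yet replicate 1 had no region there, and a replicate 2 region with a score of 3.16 covered 51.2% of it. The one at 320248 to 321268 (1021 bp), with a score of 2.52, was in neither list.

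3LHet (2.56 Mb) held the most regions of any Het scaffold, 96 in the combined list, and replicate 1 had 65 there and replicate 2 60. Of these 96, 48 lay in the first of 3 equal stretches, where 21.6% of the sequence was covered, against 7.31% in the middle stretch and 13.2% in the last. The replicate lists gave 15.5%, 4.77% and 9.92%, and 12.8%, 4.65% and 9.15%. The group with the most regions was 7 over 26.4 kb at 456518 to 482892, of which 3 were found in both lists, 1 in one and 3 in neither. A longer group of 6 at 672018 to 728946 (56.9 kb, 88.5% covered) had 5 in both lists and held the widest region of the scaffold. That region, 689134 to 712112, had a score of 1.10, and replicate 1 and replicate 2 covered 89.7% and 87.4% of it. A group of 5 at 750094 to 767294 was by contrast almost without recurrence, with 0 in both lists, 1 in one and 4 in neither, and scores from 0.38 to 0.66. The second widest region, 2385092 to 2400990 (15.9 kb, score 1.76), recurred in both lists with best scores of 1.79 and 2.03. The 2 highest-scoring regions, at 2289590 to 2290592 (1003 bp, score 3.10) and 850924 to 851924 (1001 bp, score 2.98), recurred in neither. The longest gap, 284 kb from 1834017 to 2117671, had no whole region of any list inside it.

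3RHet (2.52 Mb) had no region over most of its stated length. Its first region began 638 kb in, was 1209 bp wide and was found in neither replicate list, and an 894-kb gap followed, from 639229 to 1532893. In the replicate lists no region began before 1661301 and 1661537. Most regions lay between there and 1936780. They included the largest group of the combined list, 5 regions over 23.1 kb at 1897184 to 1920292, in which only the first recurred in both lists. The 9 regions found in both lists had a median width of 7945 bp and a median score of 1.76, whereas the 8 found in replicate 1 only had 2015 bp and 0.44 and the 13 found in neither 1209 bp and 0.46. The widest region, 1799858 to 1811682 (11.8 kb), had a score of 1.71 in the combined list, and 3 regions of each replicate lay in it with best scores of 2.23 and 2.29. The next widest, 1897184 to 1908234 (11.1 kb), had scores of 1.82, 1.97 and 2.04 in the combined, replicate 1 and replicate 2 lists. The highest score, 2.84, belonged to a 1001-bp region at 2055048 to 2056048 found in neither list, and the next, 2.39, to a 7945-bp region at 1704252 to 1712196 that had 2.37 and 2.44 in the replicates. The last region, 2510846 to 2518502, ended past the scaffold's stated length of 2517507 bp by 995 bp, and the matching replicate regions did so by 965 and 933 bp. With it clipped, the coverage of 3RHet was 4.18%.

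XHet (0.204 Mb) held 13 regions in the combined list. Of these, 12 formed the largest group of that list on any of the scaffolds, 77.3 kb from 50098 to 127418. In replicate 1 the XHet group held 6 regions over 41.4 kb, fewer than the 8 of the largest group on 3LHet. In replicate 2 the XHet group held 8 regions over 46.5 kb, the most on any of the scaffolds. The longest gap was 13.5 kb, from 36575 to 50097, and no region of any list lay beyond 127418. The 2 widest regions were also the 2 highest-scoring. At 73258 to 87822 (14.6 kb) the combined-list score was 1.91, beside 1.95 in replicate 1 and 1.99 in replicate 2. At 52910 to 64788 (11.9 kb) it was 1.71, 1.75 and 1.95. After these came 7 narrower regions from 89028 to 127418, 2371 to 3821 bp wide with scores of 0.65 to 0.93, whose starts followed each other at 5682 to 6066 bp, a mean of 5883 ± 154 bp (SD over 6 spacings). Measured between centres, the spacing of these regions was less even, 5363 to 6407 bp. Replicate 1 held 6 of the 7 and lacked the sixth, so that its starts were 5535 to 5988 bp apart with 1 step of 11945 bp across the missing one. Replicate 2 also held 6, lacked the seventh, and had starts 5298 to 6321 bp apart. Counting as an even run any series of neighbours whose start-to-start distances all lay within 5% of their mean, this was the longest in the combined list. By the same rule it was a run of 5 in replicate 1 and of 3 in replicate 2. In the combined list the arms had 215 runs of 3, 8 of 4 and 0 of 5 or more, and the scaffolds 16 of 3, 1 of 4 and 1 of 5 or more. In replicate 2 the arms had 205 runs of 3, and the longest run on either the scaffolds or the arms was 4.

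YHet (0.347 Mb) held 4 regions, all after position 304456, and 3 in each replicate list. The 3 that recurred, at 312592 to 314870, 319828 to 322146 and 327068 to 329372, were nearly equal in width (2279, 2319 and 2305 bp) and in spacing, with starts 7236 and 7240 bp apart. In replicate 1 these spacings were 7219 and 7189 bp, while replicate 2 had 7259 and 7215 bp. Their scores rose along the scaffold in each list, 2.10, 2.52 and 3.26 in the combined list, 2.25, 2.40 and 2.78 in replicate 1, and 2.11, 3.04 and 3.73 in replicate 2. The last of these was the highest score of all 4070 regions of replicate 2. The fourth region, 304456 to 306298 (1843 bp, score 1.10), was found in neither list, and the longest gap, 6.29 kb from 306299 to 312591, separated it from the other 3.

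U (10.0 Mb) held the most regions, 124 in the combined list and 61 in each replicate list. Of these, 87 were more than 5 kb from any neighbour, and the largest group had 4 regions over 21.9 kb at 1088356 to 1110276, of which 3 were found in both lists. That group held the second widest region, 1099344 to 1110276 (10.9 kb), with scores of 1.43, 1.42 and 1.50 in the combined, replicate 1 and replicate 2 lists. The widest, 3433180 to 3447144 (14.0 kb), had a score of 1.24 and best scores of 1.33 and 1.45. The highest-scoring regions on U were at 9441676 to 9443820 (2145 bp, score 3.27) and 4924968 to 4927078 (2111 bp, score 3.18), and neither list held either. The 57 regions found in neither list had a higher median score (1.57) than the 52 found in both (1.30) while being narrower, 1367 bp against 2964 bp. On the Het scaffolds together the order of scores was the other way, 0.50 for those found in neither and 1.23 for those found in both. The longest gap was 928 kb, from 2098439 to 3026935, and no region of any list lay inside it.

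Compared with each other, the replicate lists shared most of their scaffold regions, but a smaller share than over the whole lists. Of the replicate 1 regions 179 of 224 (79.9%, 74.2 to 84.6%) overlapped a replicate 2 region, and of the replicate 2 regions 185 of 203 (91.1%, 86.4 to 94.3%) overlapped a replicate 1 region. Over all regions of the lists these shares were 91.3% and 95.5%, and on the arms 91.9% and 95.7%. The sequence in both lists was 75.4% of that in either, against 87.8% on the arms. The combined list held all 203 replicate 2 regions and 222 of the 224 of replicate 1, the exceptions being 2RHet 725621 to 726931 and 3LHet 747955 to 749644, with scores of 0.43 and 0.57. There were 175 pairs of regions that were each other's largest overlap, and their starts and ends differed by medians of 119 and 130 bp (arms 95 and 96 bp). The 45 replicate 1 regions without an overlap in replicate 2 were 1690 bp wide in the median and scored 0.67, with median scores of 0.55 on 2RHet, 0.61 on 3LHet, 0.67 on 3RHet and 1.01 on U. The 18 replicate 2 regions without an overlap in replicate 1 were 1605 bp wide in the median and scored 0.85, with median scores of 0.59 on 3LHet (7 regions), 1.48 on U (7 regions) and 1.87 on 2RHet (2 regions).

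In the matched pairs the scores of the 2 lists rose together, with a Spearman correlation of 0.952 and a Pearson correlation of 0.933 across the 175 pairs, which share their 2 libraries and are not independent. Replicate 2 was the higher in 94 of 175 pairs (53.7%, 46.3 to 60.9%), against 76.5% (75.1 to 77.9%) of the 3555 pairs on the arms. The share was 56.6% (47.7 to 65.0%) on the Het scaffolds without U. It was 66.3% (55.6 to 75.5%) on chromosome 4 and 68.3% (62.5 to 73.6%) in the proximal windows. The arms had higher scores, and the share depended on score, so pairs were also compared by their mean score. Below 1 the share with replicate 2 higher was 32.2% on the scaffolds and 45.2% on the arms, from 1 to 2 it was 64.6% and 76.3%, and from 2 it was 24 of 37 (64.9%, 48.8 to 78.2%) and 90.0% (88.3 to 91.4%). In the same 3 classes chromosome 4 had 60.6%, 61.8% and 87.5%, and the proximal windows 44.8%, 76.0% and 89.7%. The Het scaffolds without U had 29.8%, 71.2% and 78.3%. Among the pairs with a mean score of 2 or more, replicate 2 was higher in 18 of 23 on the Het scaffolds and in 6 of 14 on U. The largest differences on U included 4395688 to 4397864, with 2.95 in replicate 1 and 1.88 in replicate 2, and 8964588 to 8967934, with 3.12 and 2.42. On YHet the largest was the last region, with 2.78 and 3.73. Large differences went both ways on U and on the Het scaffolds. The U pair starting at 9340022 in replicate 1 had 2.13 and 2.70. The 3LHet pair starting at 679961 in replicate 1 had 2.22 and 1.38.

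**Figure D5:**
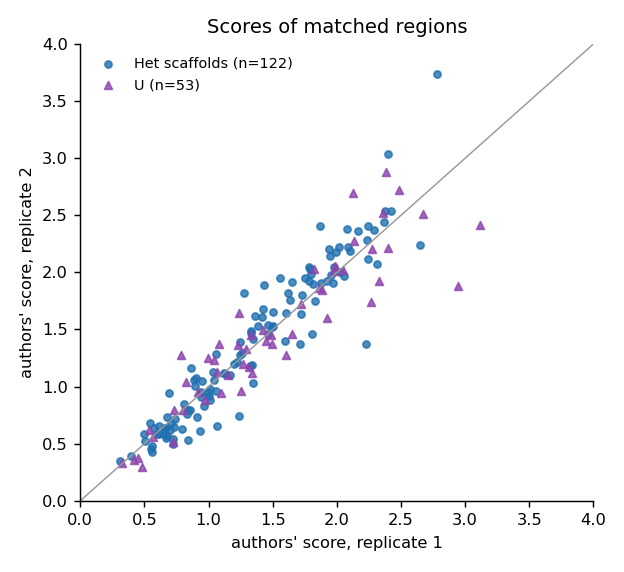
Authors' score in replicate 1 (x axis) and replicate 2 (y axis) of the 175 matched pairs of regions, with circles for the Het scaffolds, triangles for U and a line of equal scores. Points lie on both sides of the line, with replicate 2 higher in 94 of 175.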

How the data were processed

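The 3 lists of significantly enriched regions deposited by the authors give start, end and a score per region: 1 for each immunoprecipitated library and 1 combined list for the replicate set. Per the file headers they are on FlyBase release 5, and scaffold lengths were read there. Bowtie 0.12.7 appears, per the submitters' processing notes, with no role stated. Neither labels nor headers say which peak caller and threshold were used, whether the inputs entered, or how the combined list was made. The authors' score has no stated scale and was used to rank, filter and describe regions. No list of the inputs was used, and no genome or annotation of release 5 was used, so no genes or sequences are given.

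All values were computed in Python 3.11.15 with pandas 2.3.3, NumPy 2.4.6 and SciPy 1.17.1, and plotted with matplotlib 3.10.9, and the counting steps were tested on simulated data. Regions counted as found when sharing at least 1 bp. Regions named are, on each scaffold, the 2 widest, the 2 highest-scoring, the largest group and the longest gap, all of the combined list. Others named (further groups, all YHet regions, the even runs, the pairs with large differences, the regions missing from the combined list, the region past the scaffold end) were chosen after their values were seen. Members, limits and comparisons were chosen with earlier results of these data known. Score steps, even runs and narrow high-scoring regions were looked for after seeing the data.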

Additional observations from a re-analysis of the deposited data

How the results depend on the processing

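Under the alternatives, the scaffolds stayed below the arms taken under the same setting in coverage (5 of 5), recurrence in both lists (6 of 6), width (4 of 4), grouping (5 of 5) and score (2 of 2). Gaps stayed longer on the scaffolds in 4 of 4, but with U left out the medians were close, 4.87 kb against 4.68 kb on the arms. Each replicate list alone gave, against the combined list, coverage of 3.83 to 4.33%, a median width of 2661 to 2768 bp, a median gap of 12.2 to 17.5 kb, 44.3 to 48.2% of regions in groups and a median score of 1.11 to 1.28. Found in a single named replicate list were 51.3 to 57.7% of regions. Keeping regions whose score reached the median of the whole list gave coverage of 2.34%, recurrence of 58.9% (arms 99.6%) and a median width of 2539 bp. Leaving out U gave coverage of 9.62%, a median gap of 4.87 kb and 70.0% of regions in groups, while recurrence was 48.9%. Merging regions within 200 bp gave a median width of 2392 bp and a median gap of 12.9 kb. Gap limits of 2 and 10 kb put 37.3% and 66.1% of regions in groups. With 50% reciprocal overlap recurrence was 41.7% and the median start distance 108 bp. Chosen after seeing the data, a width of at least 2 kb gave recurrence of 74.8% (arms 94.0%), and clipping at scaffold ends left coverage at 6.18%. The cause of these changes was not tested. No paired analysis was possible because no result comes from a test between groups of samples: scaffolds and arms were described within each list, and the inputs were not analysed here. Without counts, no statement on depth can be made.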
